A study of Mus musculus with 88 samples.

Results

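The genes described here are 34 genes of cholesterol synthesis, sterol sensing, lipid transport and sterol turnover, followed through nuclear RNA-seq of mouse brain cell types. They were chosen by name: an entry of a count table belongs to the set when its Ensembl gene ID carries one of the 34 symbols in the gene annotation, and no measured value enters that rule. All 34 were found among the 53749 gene IDs of each of 3 count tables. By role they are 7 enzymes of the mevalonate arm (Acat2, Hmgcs1, Mvk, Pmvk, Mvd, Idi1, Fdps), 3 of the squalene arm (Fdft1, Sqle, Lss), 8 that turn lanosterol into cholesterol (Cyp51, Tm7sf2, Msmo1, Nsdhl, Hsd17b7, Ebp, Sc5d, Dhcr7), 5 sterol sensors and their transcription factors (Srebf1, Srebf2, Scap, Insig1, Insig2), 2 liver X receptors (Nr1h2, Nr1h3), 7 transport genes (Abca1, Abcg1, Apoe, Npc1, Npc2, Stard4, Lrp1) and 2 turnover enzymes (Cyp46a1, Soat1).

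The study measured how contextual fear conditioning (CFC), in which a mouse learns to link a new context with a foot shock, and the stress hormone corticosterone change transcription and DNA breaks in the brain. Its animals were male wild-type C57BL/6J mice, 4 months old. Naive mice stayed in the home cage, and CFC10 and CFC30 mice were killed 10 or 30 min after they entered the chamber in which they were shocked. For the hormone, mice received a corticosterone:HBC complex at 2 mg/kg or an equal volume of saline into the abdomen, 30 min before death. Nuclei were fixed with formaldehyde, sorted by flow cytometry, and their total RNA was sequenced. In the conditioning experiment the nuclei of hippocampus (HIP) and medial prefrontal cortex (mPFC) were split into NeuN- (non-neuronal) and NeuN+ (neuronal) fractions, with 4 libraries a group in HIP (3 for naive NeuN-) and 3 a group in mPFC. In the hormone experiment hippocampal nuclei were split by antibody into NeuN+ (neurons), GFAP+ (astrocytes), PU.1+ (microglia) and the triple-negative rest, 3X- (enriched for oligodendrocytes), with 4 libraries a group. The study calls its replicates independent, but the labels tie no library to an animal, so the p-values below measure the spread between these libraries.

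Cells make cholesterol from acetyl units through mevalonate, squalene and lanosterol. When sterols in the endoplasmic reticulum run low, SCAP escorts the SREBP transcription factors (genes Srebf1 and Srebf2) to the Golgi for cleavage, and they then switch on the synthesis enzymes; the INSIG proteins hold SCAP back when sterols are plentiful. Oxysterols, which build up with excess cholesterol, activate the liver X receptors, which switch on the exporters ABCA1 and ABCG1. The brain makes its own cholesterol, since lipoproteins do not cross the blood-brain barrier: oligodendrocytes make it for myelin, and astrocytes pass it to neurons on particles built around apolipoprotein E. Neurons rid themselves of cholesterol through CYP46A1, which makes 24S-hydroxycholesterol.

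Libraries held 5935395 to 18271372 counts. Of 74 libraries, 73 were used, because HIP NeuN- naive replicates 3 and 4 hold identical counts and were counted as 1 sample. HIP and mPFC were prepared with different versions of the library kit, so region and kit cannot be told apart and no level is compared between them. Each population carried the markers its label calls for: in saline libraries, 6 neuron genes summed to 5060 to 5230 CPM (counts scaled to an equal total per library) in NeuN+ nuclei, 7 astrocyte genes to 11450 to 14450 CPM in GFAP+, 7 microglia genes to 6601 to 7152 CPM in PU.1+ and 7 oligodendrocyte genes to 9507 to 10040 CPM in 3X-. Neuron genes still summed to 945 to 1345 CPM in GFAP+, 689 to 1031 CPM in PU.1+ and 416 to 574 CPM in 3X- saline libraries. In all these bulk samples fewer cells of a type and less RNA per cell cannot be told apart.

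The promoter windows (250 bases before to 50 after the gene start, RefSeq, GRCm38.p6) of 28 of the 34 genes could be matched. They were searched on both strands for the letters TCACNCCAC, a common form of the sterol regulatory element that SREBP binds. One window held it, 3.57% of the 28, against 388 of 27025 promoters, or 1.44%, in all. It belongs to Hmgcs1, the cytosolic HMG-CoA synthase that commits acetyl units to the mevalonate arm, and is shown because Hmgcs1 is among the genes called after CFC below. The match begins 137 bases before the start. The whole stretch shown, with flanking bases, spans chr13:119690204-119690232 on the + strand, and the matching letters are in capitals.
Hmgcs1: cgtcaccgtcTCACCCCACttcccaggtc
The match is a description of letters only, and windows without it say nothing of SREBP.

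Resting levels in the 4 hippocampal populations answer where these genes are transcribed. Astrocyte nuclei stood highest: in saline libraries, GFAP+ had the top mean level of 24 of the 34 genes, including all 7 mevalonate genes, all 3 squalene genes and 7 of the 8 genes from lanosterol to cholesterol. PU.1+ was highest for 5 (Insig2, Nr1h2, Abca1, Npc2, Lrp1), 3X- for 4 (Ebp, Scap, Abcg1, Npc1) and NeuN+ for 1 (Cyp46a1). On a scale per gene length (FPKM, the CPM divided by the kilobases of gene body), the summed mevalonate arm came to 9.97 to 16.1 in GFAP+ libraries, against 4.79 to 5.70 in 3X-, 2.49 to 3.58 in NeuN+ and 2.51 to 2.99 in PU.1+. The 8 genes from lanosterol to cholesterol summed to 18.1 to 25.2 FPKM in GFAP+, against 8.77 to 9.36 in 3X-, 4.93 to 5.45 in NeuN+ and 4.27 to 4.79 in PU.1+. Thus no GFAP+ library overlapped any other population on either sum.

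**Figure D1:**
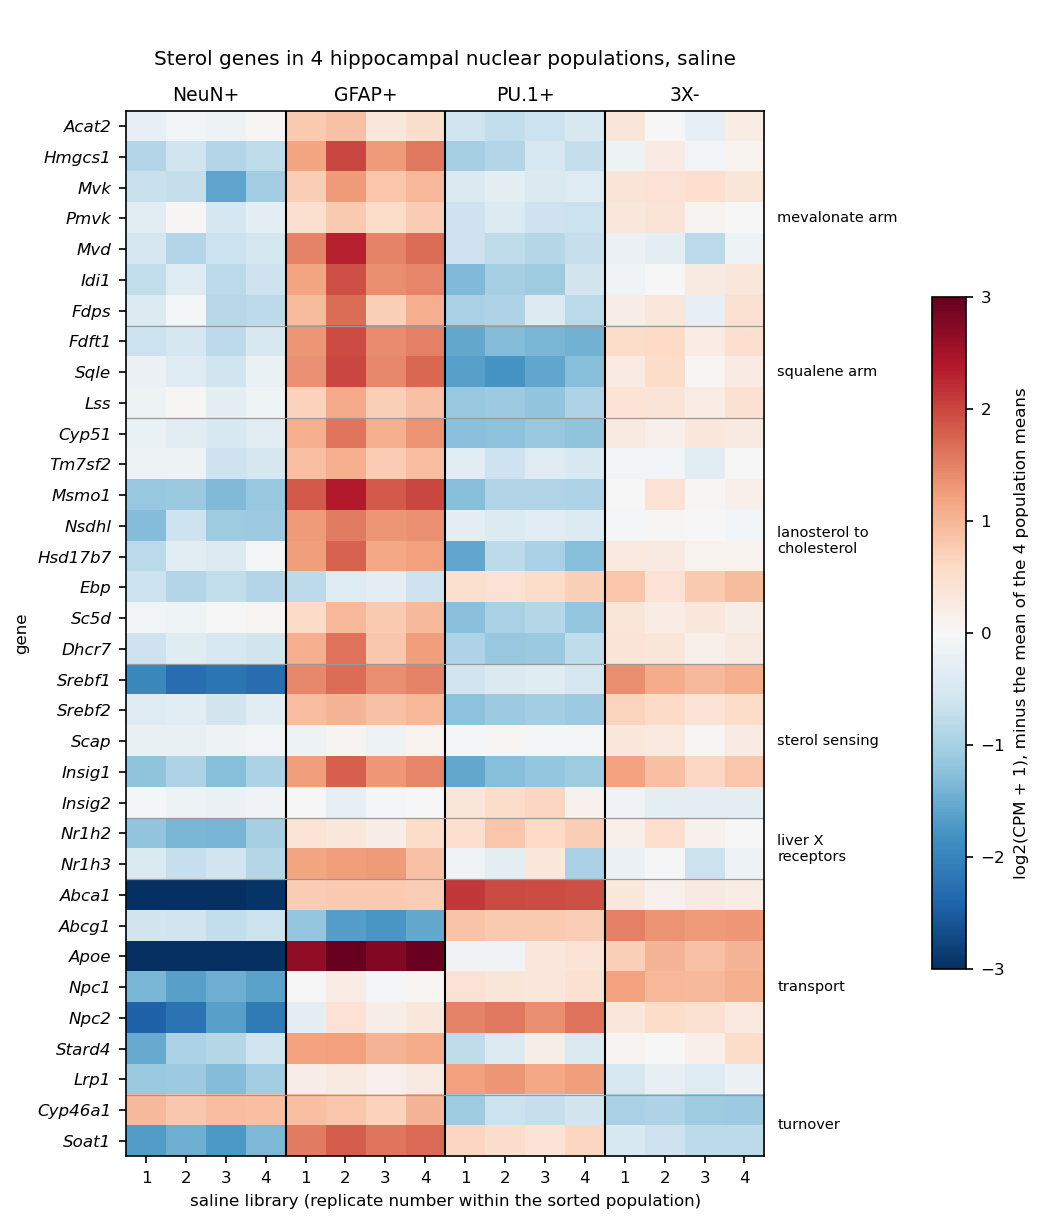
Levels of the 34 genes in the 16 saline libraries, as log2(CPM + 1) minus the mean of the 4 population means, with the colour scale clipped at -3 and 3; columns are libraries by population and genes run down by role. The block of synthesis genes is mostly red in GFAP+ and mostly blue in PU.1+, and Apoe is at the low end of the scale in NeuN+.

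Against the mean of the other 3 populations (edgeR's quasi-likelihood test, Benjamini-Hochberg adjusted over 18536 genes, called at adjusted p under 0.05), 28 of the 34 genes were higher and 3 lower in GFAP+, where 25.7% of all genes tested were called higher and 28.2% lower. Their median log2 difference was 1.43, against -0.05 over all genes. Nr1h3 was too low for a test within the other 3 populations and entered these comparisons through GFAP+ alone. Idi1, Mvd and Hsd17b7 were too low for a test within PU.1+, and Npc2, Nsdhl and Stard4 within NeuN+. These genes entered through other populations, which favoured a lower call in PU.1+ or NeuN+ beforehand. In PU.1+, 9 were higher and 24 lower, with 32.4% of all genes higher and 34.1% lower, and a median of -1.03 against -0.02. In 3X-, 22 were higher and 4 lower (28.5% and 25.6% of all genes; median 0.38 against 0.00), and in NeuN+, 2 were higher and 23 lower (30.5% and 34.9%; median -0.72 against -0.11). The synthesis enzymes parted the glia most plainly: all 7 mevalonate and all 3 squalene genes were called higher in GFAP+ and all 10 were called lower in PU.1+. Of these, Idi1 and Mvd entered the PU.1+ comparison through other populations, so their lower calls add no support.

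Msmo1, the methylsterol oxidase that removes methyl groups on the way from lanosterol, showed a wide astrocyte excess. It had 121, 177, 122 and 136 CPM in GFAP+ libraries, against 33.6, 45.5, 34.3 and 36.7 in 3X-, 13.02, 17.2, 17.2 and 17.04 in PU.1+ and 14.6, 14.9, 12.7 and 14.6 in NeuN+ (log2 difference 2.66 ± 0.08 (SE), adjusted p = 6.6e-30). Every GFAP+ library was above every other library, 3X- came next, and PU.1+ and NeuN+ overlapped. Sqle, squalene epoxidase, an oxygen-requiring and rate-limiting step, had 33.6, 52.7, 35.5 and 43.6 CPM in GFAP+, against 14.9, 18.8, 12.98 and 14.99 in 3X-, 10.9, 9.33, 7.89 and 10.7 in NeuN+ and 3.35, 2.93, 3.54 and 4.51 in PU.1+ (2.25 ± 0.10, adjusted p = 1.0e-23 for GFAP+). In PU.1+ its difference from the other 3 was -2.61 ± 0.15, adjusted p = 9.5e-20, and no PU.1+ library reached any library of another population. Hmgcs1 averaged 64.03 ± 17.7 CPM in GFAP+, against 21.9 ± 2.91 in 3X-, 12.2 ± 2.14 in PU.1+ and 11.9 ± 1.23 in NeuN+ (SD, n = 4 each). GFAP+ saline replicate 2 was the highest of its 4 libraries for 17 of the 18 synthesis enzymes, and the count of calls in GFAP+ lay between 30 and 32 with any library of the table left out.

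Ebp, the sterol isomerase, was the synthesis enzyme that did not follow this order. It had 8.14, 5.96, 7.88 and 8.93 CPM in 3X-, against 6.17, 6.00, 6.58 and 7.52 in PU.1+, 1.99, 2.96, 3.28 and 2.37 in GFAP+ and 2.29, 1.81, 2.10 and 1.81 in NeuN+. 3X- and PU.1+ overlapped, as did GFAP+ and NeuN+, and GFAP+ stood below the mean of the others (-0.92 ± 0.16, adjusted p = 4.1e-06). Fdft1, which joins a pair of farnesyl groups into squalene, Lss, which closes squalene's rings, and Cyp51, which removes the 14-alpha methyl group of lanosterol, were each called higher in GFAP+ by 2.03, 1.09 and 1.68 on the log2 scale. For Mvk, Pmvk and Mvd, the mevalonate kinases and decarboxylase, the GFAP+ differences were 1.28, 0.84 and 2.69. Acat2, Idi1 and Fdps, which make acetoacetyl-CoA, isopentenyl isomers and farnesyl diphosphate, differed by 0.83, 2.47 and 1.58. Mvd lies wholly inside an overlapping gene model on the other strand, for which the deposited data hold no counts. Fdps lies for 89.7% of its length inside one on the same strand. That model held 0.043 of the Fdps counts in HIP, 0.012 in mPFC and 0.03 in the hormone experiment. How the counting treated reads that fall in both models was not tested.

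The later enzymes Nsdhl, Hsd17b7, Tm7sf2, Sc5d and Dhcr7 were called higher in GFAP+ by 1.83, 1.93, 1.27, 1.05 and 1.61. Sc5d and Dhcr7 carry out the last desaturation and reduction, and Sc5d was the single synthesis enzyme called higher in NeuN+ (0.31 ± 0.08, adjusted p = 0.0012). Its NeuN+ libraries had 19.3, 18.6, 20.6 and 21.3 CPM, against 30.8, 41.6, 35.7 and 40.99 in GFAP+, 26.6, 23.97, 25.96 and 23.2 in 3X- and 8.05, 9.87, 10.97 and 8.64 in PU.1+. NeuN+ thus lay below GFAP+ and 3X- and above PU.1+, and the low PU.1+ libraries enter the mean of the other 3.

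Of the regulators, Srebf1 and Srebf2 were highest in astrocyte nuclei and lowest in different populations. Srebf1 had 109, 128, 106 and 113 CPM in GFAP+, against 106, 86.1, 78.4 and 85.95 in 3X-, 25.6, 29.2, 30.6 and 27.6 in PU.1+ and 9.66, 7.38, 7.89 and 7.35 in NeuN+. Srebf2, the SREBP gene most tied to cholesterol synthesis, had 202, 218, 196 and 215 CPM in GFAP+, against 170, 160, 142 and 156 in 3X-, 81.00, 85.05, 72.3 and 84.05 in NeuN+ and 44.8, 49.6, 52.5 and 49.9 in PU.1+. GFAP+ and 3X- were close for Srebf1, while NeuN+ was lowest for Srebf1 and PU.1+ for Srebf2, without overlap. Insig1 averaged 41.3 ± 7.65 CPM in GFAP+, against 27.6 ± 4.92 in 3X-, 6.25 ± 0.899 in NeuN+ and 5.44 ± 0.851 in PU.1+ (SD, n = 4 each). Its paralog Insig2 spanned less, at 31.8 ± 5.06 CPM in PU.1+, 22.3 ± 1.80 in GFAP+, 21.3 ± 0.771 in NeuN+ and 19.7 ± 1.32 in 3X-. Scap was nearly level too, with means between 63.99 ± 5.80 CPM in 3X- and 48.2 ± 2.44 CPM in NeuN+. Of the receptors, Nr1h2 (LXR beta) had means of 4.68 ± 0.486 FPKM in PU.1+ and 1.08 ± 0.166 in NeuN+, and Nr1h3 (LXR alpha) had 0.299 ± 0.0428 FPKM in GFAP+ and at most 0.0852 ± 0.0478 elsewhere.

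Transport genes split by cell type rather than following synthesis. Apoe, the main apolipoprotein of brain lipoproteins, had 655, 841, 704 and 799.8 CPM in GFAP+, against 169, 208, 190 and 207 in 3X-, 95.4, 95.1, 129.7 and 137 in PU.1+ and 5.07, 5.29, 6.19 and 7.14 in NeuN+. Per gene length it was the most abundant of the 34 genes in GFAP+ (244 ± 27.8 FPKM), 3X- (62.8 ± 5.95) and PU.1+ (37.1 ± 7.17), and second to Lrp1 in NeuN+ (1.92 ± 0.307 against 2.95 ± 0.219 FPKM). Abca1, which loads cholesterol onto lipid-poor apolipoproteins, was highest in microglia, at 980.1, 897, 884 and 864 CPM in PU.1+, against 385, 392, 390.3 and 375 in GFAP+, 283, 246, 274 and 265 in 3X- and 26.7, 27.1, 26.4 and 28.4 in NeuN+. Abcg1, which exports to lipidated particles, was highest in 3X-, at 268, 237, 225 and 231 CPM, against 169, 161, 160.1 and 156 in PU.1+, 63.1, 61.2, 55.6 and 59.1 in NeuN+ and 40.9, 28.9, 27.00 and 31.1 in GFAP+. None of the 4 populations overlapped on either exporter, and GFAP+ was the lowest for Abcg1. Npc1 and Npc2, which hand cholesterol out of the lysosome, differed in their top population: Npc1 averaged 198 ± 15.3 CPM in 3X-, against 124 ± 4.76 in PU.1+, 98.1 ± 8.90 in GFAP+ and 32.3 ± 2.68 in NeuN+. Npc2 averaged 42.6 ± 3.04 CPM in PU.1+, against 19.1 ± 1.57 in 3X-, 16.2 ± 3.39 in GFAP+ and 2.60 ± 0.906 in NeuN+. Lrp1, an endocytic receptor for apolipoprotein E, averaged 1276 ± 57.9 CPM in PU.1+, against 626 ± 30.5 in GFAP+, 432 ± 40.9 in 3X- and 245 ± 18.2 in NeuN+. Stard4, a carrier of sterol between membranes, averaged 9.86 ± 0.699 CPM in GFAP+ and between 1.55 ± 0.626 (NeuN+) and 4.68 ± 1.01 (3X-) elsewhere.

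The turnover enzymes were both called higher in GFAP+, but only 1 of them set it apart from neurons. Cyp46a1 had 42.9, 38.6, 41.3 and 41.01 CPM in NeuN+, against 41.02, 38.8, 35.4 and 44.2 in GFAP+, 9.66, 13.3, 12.8 and 14.4 in PU.1+ and 10.4, 10.8, 9.76 and 9.48 in 3X-. NeuN+ and GFAP+ overlapped throughout. The neuron marker sum was 945 to 1345 CPM in GFAP+ and 5060 to 5230 CPM in NeuN+ saline libraries. The part of neuronal nuclei in the GFAP+ level of Cyp46a1 was not tested. Soat1, which esterifies cholesterol for storage, had 129, 156, 134 and 144 CPM in GFAP+, against 68.3, 62.8, 58.3 and 68.2 in PU.1+, 31.2, 27.8, 24.7 and 24.8 in 3X- and 12.9, 15.03, 12.6 and 16.4 in NeuN+, without overlap between any pair of populations.

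Companion lists were described the same way. Of their 55 genes, 53 were tested in these comparisons, against 48 within PU.1+ and 44 within NeuN+. Some thus entered through other populations, which favoured a lower call in PU.1+ or NeuN+. All 13 fatty acid synthesis genes were called higher in GFAP+ (median 1.64), and 11 of the 13 were called lower in PU.1+ and 11 lower in NeuN+. Of 4 further genes of synthesis and uptake, 3 were called higher in GFAP+ and 3 lower in PU.1+. The 9 genes of SREBP processing had no such order, with 1 called higher and 5 lower in GFAP+ and 7 higher and 1 lower in PU.1+. In GFAP+, 8 of the 14 lipoprotein and receptor genes tested were called higher and 4 lower, 4 of 10 genes of intracellular sterol transport were higher and 5 lower, and 2 of 3 sterol hydroxylases tested were higher and 1 lower.

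Non-neuronal nuclei carried more of the set than neuronal nuclei in both regions of naive mice. In HIP, 30 of 34 genes were called higher and 1 lower in NeuN-, where 37.0% and 33.8% of 16048 genes were called higher and lower. The median log2 difference of the set was 1.16, against 0.05 over all genes. In mPFC, 27 were higher and 2 lower, with 35.4% and 34.1% of 16560 genes, and a median of 0.85 against 0.00. All 7 transport genes were called higher in NeuN- of both regions, led by Apoe (4.73 ± 0.15, adjusted p = 1.9e-21 in HIP and 5.15 ± 0.16, adjusted p = 2.9e-19 in mPFC). Some genes were too low for a test within NeuN+ and entered this comparison through NeuN- alone. They were 6 in HIP (Abca1, Hsd17b7, Mvd, Npc2, Nr1h3, Stard4) and 3 in mPFC (Abca1, Npc2, Nr1h3).

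Apoe had 306, 283 and 290.4 CPM in HIP NeuN- naive libraries, against 5.00, 12.4, 6.06 and 7.52 in HIP NeuN+. Abca1 had 401, 399.7 and 403 CPM in mPFC NeuN- naive libraries, against 9.99, 9.96 and 8.96 in mPFC NeuN+. The fractions were far apart for both genes, and Srebf1 (3.13 in HIP and 3.28 in mPFC) and Npc2 (2.72 and 3.07) followed. Among synthesis enzymes the span was wide: Msmo1 differed by 2.22 in HIP and 1.92 in mPFC, while Tm7sf2, the sterol reductase, was called in neither region (0.20, adjusted p = 0.23 in HIP and -0.18, adjusted p = 0.25 in mPFC). Insig2 was called in neither, and Acat2, Lss and Sc5d were called in HIP only, with mPFC differences of -0.09, 0.13 and 0.18; the difference between the regions was not tested.

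Cyp46a1 was the one gene called lower in NeuN- of both regions. It had 14.6, 16.3 and 16.5 CPM in HIP NeuN- naive libraries, against 28.7, 30.01, 31.7 and 32.02 in HIP NeuN+ (log2 difference -1.41 ± 0.07 (SE), adjusted p = 3.4e-17). The mPFC fractions stood in the same order without overlap, at 22.6, 24.1 and 19.00 CPM in NeuN-, against 49.1, 52.7 and 47.7 in NeuN+ (-1.70 ± 0.10, adjusted p = 6.3e-14). Scap was called lower in mPFC NeuN- (-0.28 ± 0.07, adjusted p = 0.00079) and had a HIP difference of -0.06, adjusted p = 0.43.

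**Figure D2:**
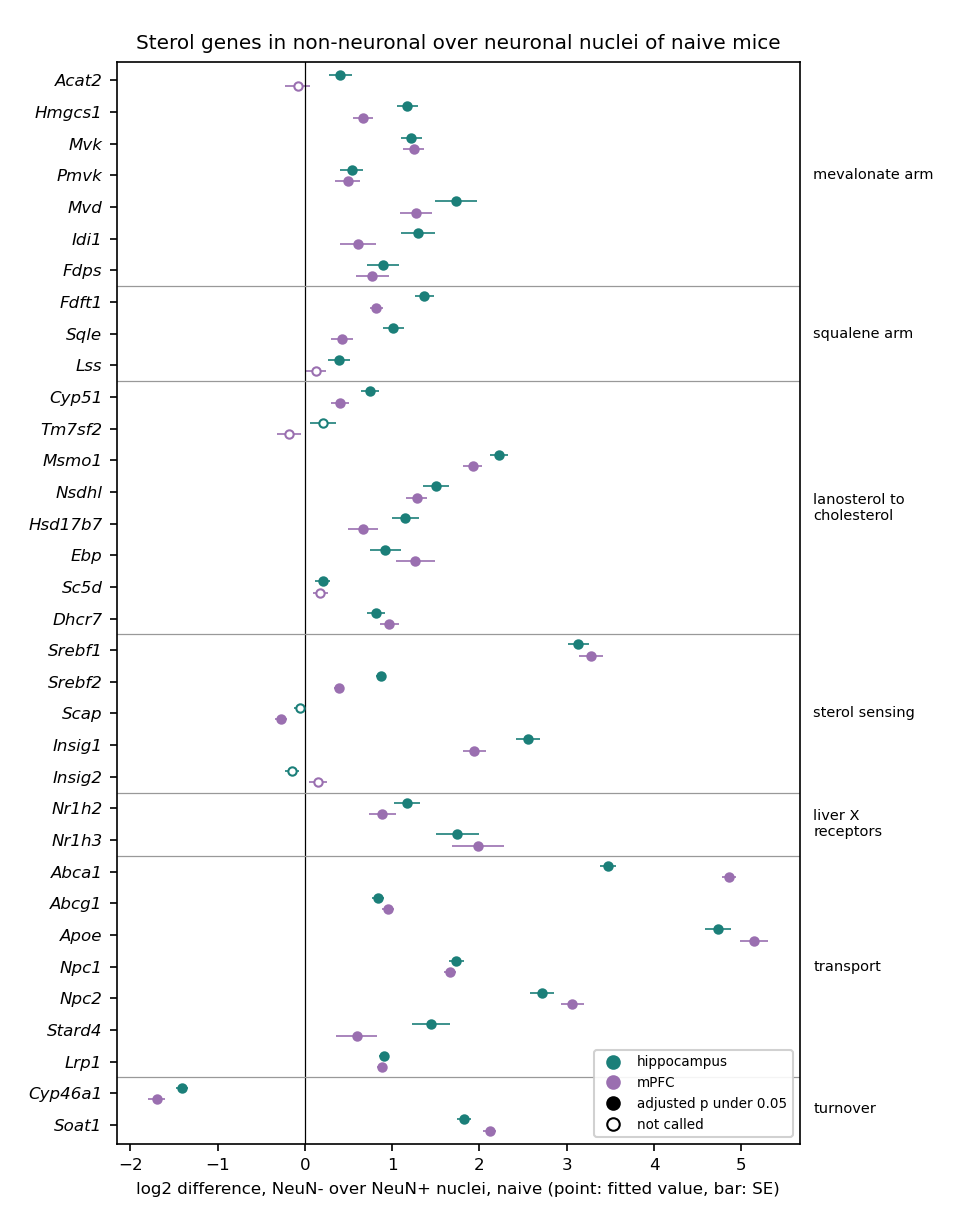
Fitted log2 difference of each gene, NeuN- over NeuN+ nuclei of naive mice, in HIP (3 and 4 libraries) and mPFC (3 each); bars are SE and filled points are called. Points lie right of 0 for most genes, reach 4.73 in HIP and 5.15 in mPFC for Apoe, and lie at -1.41 and -1.70 for Cyp46a1.

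Corticosterone moved the exporter Abca1 in opposite directions in different glia within 30 min. In PU.1+ nuclei, Abca1 and Abcg1 were both lower after corticosterone than after saline, and they were the 2 of 30 genes of the set tested there that were called. In GFAP+ nuclei Abca1 was higher and was the 1 of 34 called. In 3X- nuclei Abca1 was higher and Fdft1, Cyp51 and Msmo1 were lower, 4 of 33 tested. In NeuN+ nuclei 0 of 30 tested were called. Genes known to respond to the hormone (Fkbp5, Sgk1, Tsc22d3, Per1, Ddit4, Glul) were called higher as 6 of 6 in PU.1+, 4 of 6 in 3X-, 3 of 6 in GFAP+ and 1 of 5 tested in NeuN+, where 1 was called lower.

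The 2 calls in PU.1+, both lower, stand beside 3.41% of 14279 genes called lower and 4.43% called higher there. Abcg1 (GRCm38 chromosome 17, 31057675 to 31117988, + strand) had 98.7, 93.9, 108 and 106 CPM in PU.1+ corticosterone libraries, against 169, 161, 160.1 and 156 in PU.1+ saline libraries. The groups were well apart, a fitted 1.55-fold lower level (log2 difference -0.63 ± 0.06 (SE), adjusted p = 2.5e-06). Abca1 (chromosome 4, 53030787 to 53159895, - strand) had 744, 713, 720.3 and 752 CPM in PU.1+ corticosterone libraries, against 980.1, 897, 884 and 864 in PU.1+ saline libraries (1.21-fold lower, -0.27 ± 0.05, adjusted p = 0.0024). Its groups did not overlap either, and both calls held with each of the 8 libraries left out and under each alternative setting tried. The median log2 difference of the 30 genes was 0.02. The other 5 transport genes of PU.1+ gave 0.15, adjusted p = 0.52 (Apoe), 0.13, adjusted p = 0.34 (Npc2), 0.06, adjusted p = 0.61 (Lrp1), 0.01, adjusted p = 0.94 (Npc1) and -0.07, adjusted p = 0.95 (Stard4).

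Of the 55 companion genes, 48 were tested in PU.1+, and 3 were called higher and 4 lower. Mylip, the ubiquitin ligase that sends lipoprotein receptors to degradation, differed by -0.65 ± 0.06, adjusted p = 2.9e-06 and Lpcat3, a phospholipid acyltransferase, by -0.48 ± 0.06, adjusted p = 6.7e-05. Both, with Abca1 and Abcg1, are known targets of the liver X receptors, whose part in these differences was not tested. Of the other genes of the set, Srebf1 (-0.11 ± 0.08, adjusted p = 0.55) and Apoe (0.15, adjusted p = 0.52) were not called in PU.1+. Nr1h2 itself had 24.4, 17.7, 19.3 and 22.3 CPM in PU.1+ corticosterone libraries, against 17.98, 22.8, 19.3 and 21.1 in PU.1+ saline libraries, overlapping groups (0.09 ± 0.11, adjusted p = 0.73), and Nr1h3 was below the level tested. Lysosomal lipase Lipa (-0.30 ± 0.08, adjusted p = 0.02) and the late-endosomal sterol carrier Stard3 (-0.32 ± 0.07, adjusted p = 0.01) were the other companions called lower. Among those called higher was Elovl5, a fatty acid elongase (0.33 ± 0.08, adjusted p = 0.01). Astrocyte markers in PU.1+ summed to 926 to 1188 CPM after corticosterone, against 639.5 to 866 after saline; their part in these results was not tested. Microglia markers summed to 6201 to 6548 CPM after corticosterone, against 6601 to 7152 after saline.

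**Figure D3:**
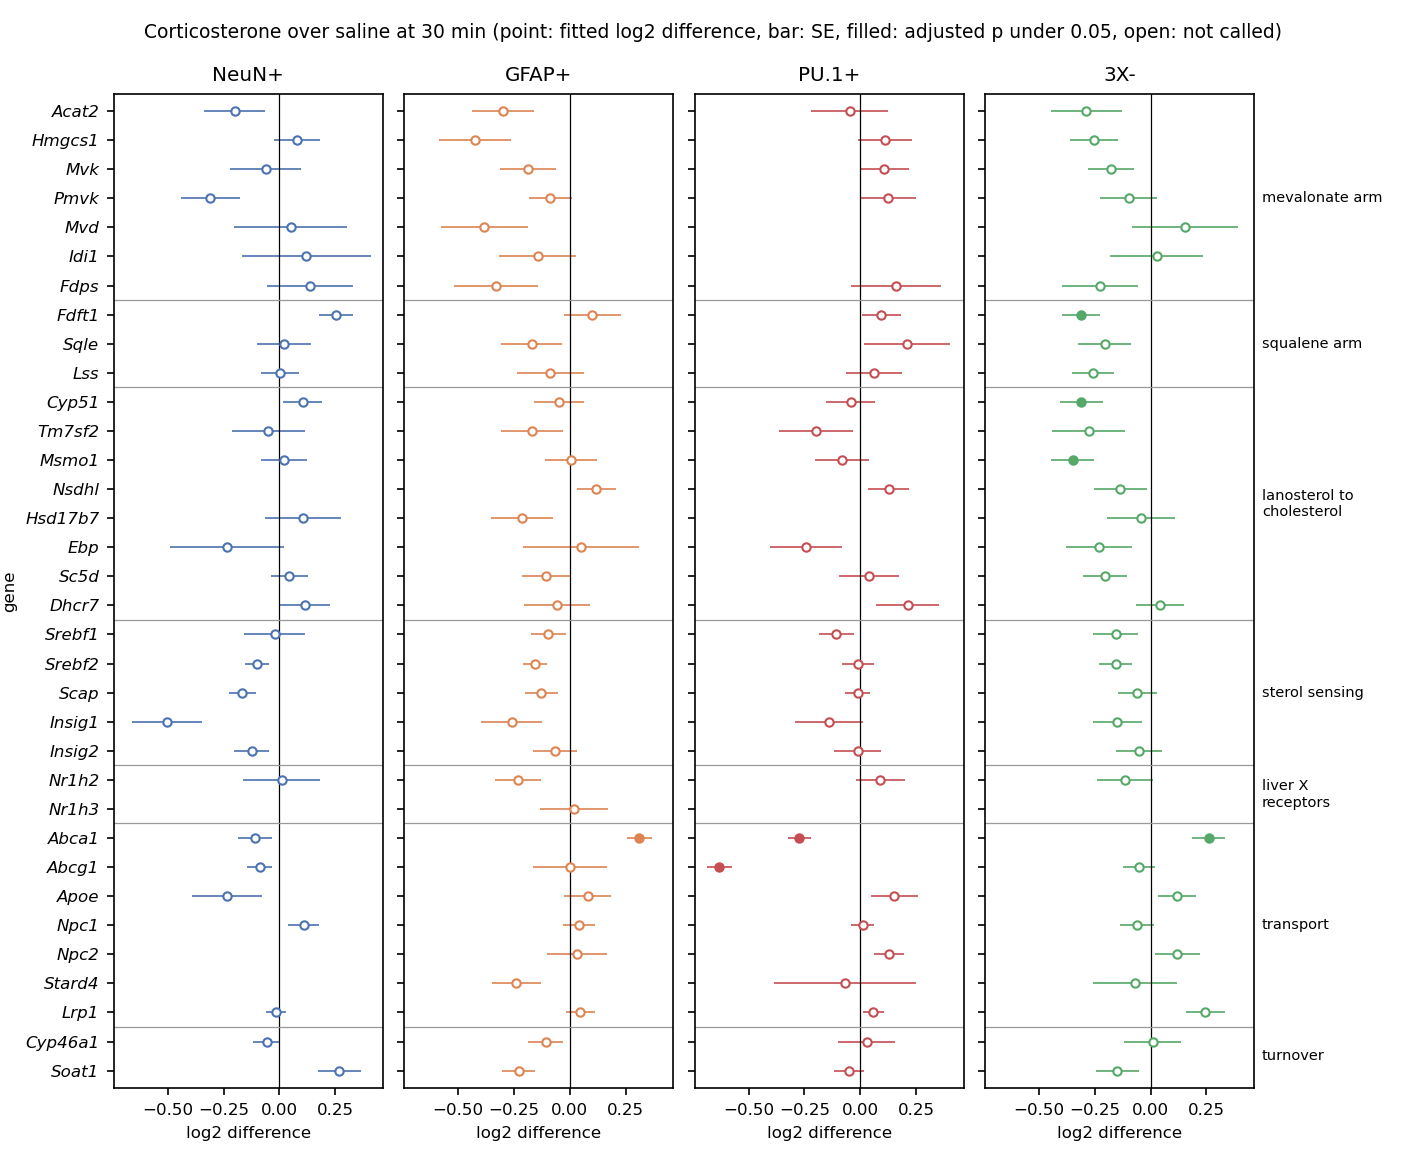
Fitted log2 difference of each gene, corticosterone over saline at 30 min, in the 4 sorted populations (4 libraries a group); bars are SE, filled points are called, and genes too low to be tested have no point. The filled points are Abca1 and Abcg1 left of 0 in PU.1+, Abca1 right of 0 in GFAP+ and 3X-, and Fdft1, Cyp51 and Msmo1 left of 0 in 3X-.

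In GFAP+ nuclei the 1 call stands beside 2.03% of 14529 genes called higher and 0.895% lower. Abca1 had 479, 482, 449.7 and 442 CPM in GFAP+ corticosterone libraries, against 385, 392, 390.3 and 375 in GFAP+ saline libraries. All hormone libraries were above all saline libraries, by 1.24-fold (log2 difference 0.31 ± 0.05 (SE), adjusted p = 0.0069), and the call held with each library left out and under each alternative tried. Abcg1, at 43.3, 25.8, 25.9 and 29.2 CPM after corticosterone, against 40.9, 28.9, 27.00 and 31.1 after saline, had a difference of 0.00 with an interval of -0.32 to 0.32. The set's median was -0.10, and 7 genes had an unadjusted p under 0.05, a count given without the share over all genes. Hmgcs1 had 43.3, 54.2, 44.1 and 43.3 CPM after corticosterone, against 49.2, 88.4, 53.1 and 65.3 after saline (-0.43 ± 0.16, adjusted p = 0.28). These groups overlapped, though the gene was called with no filter on low values (adjusted p = 1.8e-05) and with all groups in one fit (0.017). Of 50 companion genes tested in GFAP+, edgeR and DESeq2 called 0, with 7 at an unadjusted p under 0.05 (share over all genes not given).

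**Figure D4:**
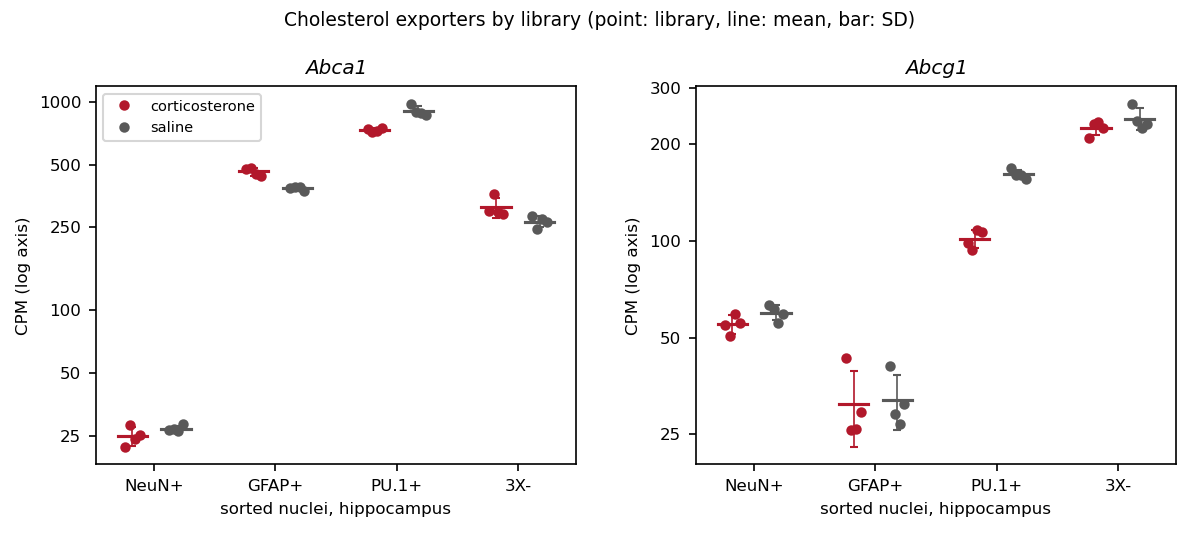
CPM of Abca1 and Abcg1 in each library of the hormone experiment on a log axis, corticosterone left of saline within each population; lines are means and bars SD of 4 libraries. In PU.1+ every corticosterone library lies below every saline library for both genes, and in GFAP+ and 3X- every corticosterone library lies above every saline library for Abca1.

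In 3X- nuclei 1 gene was called higher and 3 lower, beside 5.0% and 2.47% of 14587 genes, and the set's median was -0.14. Abca1 had 299, 360, 297 and 289.5 CPM in 3X- corticosterone libraries, against 283, 246, 274 and 265 in 3X- saline libraries (0.26 ± 0.07, adjusted p = 0.02). The hormone group lay above the saline group, narrowly except for replicate 2. Fdft1 had 48.9, 47.7, 43.7 and 45.1 CPM after corticosterone, against 62.4, 63.9, 49.2 and 60.6 after saline (-0.31 ± 0.09, adjusted p = 0.015). Msmo1 had 27.1, 28.3, 30.02 and 28.5 CPM after corticosterone, against 33.6, 45.5, 34.3 and 36.7 after saline (-0.35 ± 0.10, adjusted p = 0.019), and Cyp51 had 17.7, 21.5, 22.1 and 23.9, against 27.6, 25.3, 28.5 and 27.6 (-0.31 ± 0.10, adjusted p = 0.046). No group pair of these 3 enzymes overlapped. The calls leaned on single libraries: Abca1 was lost without saline replicates 2 or 4 (adjusted p 0.07 to 0.11) and also with no filter on low values (adjusted p = 0.23), Fdft1 without saline replicates 2 or 4 (adjusted p 0.052 to 0.098), Msmo1 without saline replicate 2 (adjusted p = 0.19) and Cyp51 without corticosterone replicates 1 or 2 or saline replicates 1, 2, 3 or 4 (adjusted p 0.051 to 0.21) and in DESeq2 (adjusted p = 0.085). Without saline replicate 2, 0 of the 4 were called. With a corticosterone library left out, Lrp1 (without replicate 1 or 3, adjusted p 0.042 and 0.0085), Lss and Srebf1 (without replicate 2, 0.049 and 0.011) were called too; with all libraries they gave 0.24, adjusted p = 0.09, -0.26, adjusted p = 0.099 and -0.16, adjusted p = 0.45.

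Companions called in 3X- were 5 higher and 1 lower of 51 tested, with Apod (0.94 ± 0.07, adjusted p = 1.3e-12) and Vldlr, the very-low-density lipoprotein receptor (-0.35 ± 0.07, adjusted p = 0.00072), at the smallest p of their list. Fads1, a fatty acid desaturase, differed by 0.38 ± 0.09, adjusted p = 0.0059 and Erlin2, which takes part in sterol-regulated degradation, by 0.34 ± 0.10, adjusted p = 0.026. Oligodendrocyte markers in 3X- summed to 10220 to 11480 CPM after corticosterone, against 9507 to 10040 after saline, and the 4 precursor markers to 1181 to 1446, against 967 to 1173; their part in these results was not tested.

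In NeuN+ nuclei edgeR called 0 of 30 genes, beside 1.26% of 12666 genes called higher and 0.797% lower. DESeq2 also called 0, and 5 genes had an unadjusted p under 0.05, a count given without the share over all genes. Closest was Fdft1, at 36.5, 26.9, 29.96 and 34.3 CPM after corticosterone, against 26.6, 28.9, 24.2 and 29.8 after saline (0.26 ± 0.08, adjusted p = 0.064). Insig1 had 4.55, 3.99, 3.53 and 5.18 CPM after corticosterone, against 5.67, 7.10, 5.29 and 6.92 after saline (-0.50 ± 0.16, adjusted p = 0.088). The Fdft1 groups overlapped and the Insig1 groups did not. Abca1 had a NeuN+ difference of -0.11 (interval -0.26 to 0.04) and Abcg1 of -0.09 (-0.20 to 0.02). Fdft1 was called without corticosterone replicate 2 or 3 (adjusted p 0.012 and 0.039) and Insig1 without saline replicate 3 (0.047). Of 44 companion genes tested, edgeR and DESeq2 called 0, with 6 at an unadjusted p under 0.05 (share over all genes not given).

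Responses were then set against each other in one fit over all 32 libraries. For PU.1+ minus GFAP+, 2 genes of 34 were called, beside 2.13% of 18536 genes: Abca1 (log2 difference -0.59 ± 0.09 (SE), adjusted p = 2.4e-05) and Abcg1 (-0.64 ± 0.15, adjusted p = 0.0066). For PU.1+ minus 3X- the same 2 genes were called, beside 3.96% of genes (Abca1 -0.52 ± 0.09, adjusted p = 0.00017; Abcg1 -0.57 ± 0.13, adjusted p = 0.004). For PU.1+ minus NeuN+, Abcg1 was the 1 gene called (-0.56 ± 0.14, adjusted p = 0.016), beside 1.55%. These comparisons share the PU.1+ libraries. The microglial exporter response thus differed from that of astrocyte-marked and triple-negative nuclei for both genes. The Abcg1 call against GFAP+ was lost without GFAP+ corticosterone replicate 1 (adjusted p = 0.052), and that against NeuN+ without NeuN+ corticosterone replicate 3 or NeuN+ saline replicates 3 or 4 or PU.1+ corticosterone replicate 2 (adjusted p 0.051 to 0.076).

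For 3X- minus NeuN+, Fdft1 was the 1 gene called (-0.60 ± 0.16, adjusted p = 0.025), beside 1.95% of genes; it was lost without 3X- corticosterone replicate 2 or 3X- saline replicates 1, 2 or 4 or NeuN+ corticosterone replicates 1 or 4 or NeuN+ saline replicates 1 or 3 (adjusted p 0.053 to 0.1). For GFAP+ minus NeuN+, edgeR called 0 of 34, beside 0.507%, where DESeq2 called 2 (Abca1 and Soat1). There edgeR called Abca1 without NeuN+ corticosterone replicate 2 (adjusted p = 0.035), and Soat1 without GFAP+ corticosterone replicate 3, GFAP+ saline replicate 1 or NeuN+ saline replicate 4 (adjusted p 0.037 to 0.045). For 3X- minus GFAP+, edgeR and DESeq2 called 0, beside 1.45%, but without GFAP+ saline replicate 2 edgeR called Fdft1 (-0.61, adjusted p = 0.0006) and Msmo1 (-0.53, adjusted p = 0.024). Each of these 2 comparisons had 3 genes at an unadjusted p under 0.05, a count given without the share over all genes.

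After CFC, neuronal nuclei of mPFC carried most of the calls, with 4 genes higher at 10 min and 5 higher and 3 lower at 30 min. Srebf2, Lrp1 and Hmgcs1 were called higher at both times. At 10 min, 4 of 31 genes tested were called higher and 0 lower, beside 8.19% and 6.26% of 12987 genes. At 30 min, 5 were called higher and 3 lower, beside 13.1% and 11.6%. These shares are of the same order as those of all genes, and the set's medians were 0.04 and 0.06. All 6 early response genes (Arc, Fos, Npas4, Junb, Egr1, Nr4a1) were called higher in NeuN+ nuclei of both regions at 10 min.

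Srebf2 (chromosome 15, 82147181 to 82205379, + strand) showed the firmest response. It had 91.5, 92.7 and 97.9 CPM in naive NeuN+ libraries, 110.1, 109 and 108 at 10 min and 124, 121 and 116 at 30 min. The 3 groups did not overlap and stood in the order of time. The differences from naive were 0.21 ± 0.05, adjusted p = 0.0059 at 10 min and 0.38 ± 0.05, adjusted p = 6.8e-06 at 30 min (1.30-fold), and both calls held with each library left out and under each alternative. Of the synthesis enzymes, known targets of SREBP, Hmgcs1 and Sc5d were called higher and Acat2 and Tm7sf2 lower at 30 min. The part of SREBP in these differences was not tested. Ccdc134, which ends 4978 bases upstream of Srebf2 on the same strand, was also higher at 10 min (0.67, adjusted p = 0.00032) and at 30 min (0.71, adjusted p = 7.9e-05), and its part in the Srebf2 counts was not tested.

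Hmgcs1 had 20.1, 16.5 and 20.2 CPM in naive libraries, 23.6, 26.9 and 22.4 at 10 min and 19.9, 22.8 and 27.5 at 30 min. At 10 min the groups were apart (0.36 ± 0.10, adjusted p = 0.02) and at 30 min they overlapped (0.32 ± 0.10, adjusted p = 0.025). Neither call held in one fit of both fractions (adjusted p = 0.090 and 0.072), and the 30 min call was lost without CFC30 replicate 3 or naive replicate 2 (adjusted p = 0.15 each), that at 10 min without CFC10 replicate 2 or naive replicate 2 (adjusted p = 0.12 each). Acat2, by contrast, had 12.3, 10.5 and 10.2 CPM in naive libraries, 7.77, 9.91 and 9.75 at 10 min and 7.91, 7.01 and 7.83 at 30 min. Its 30 min libraries were all below the naive ones (1.43-fold lower, -0.52 ± 0.12, adjusted p = 0.0023), and this call held with each library left out. Tm7sf2 had 8.18, 8.05 and 6.13 CPM in naive libraries, 6.62, 5.29 and 5.88 at 10 min and 4.82, 5.31 and 5.74 at 30 min (-0.47 ± 0.14, adjusted p = 0.013 at 30 min). Sc5d had 17.5, 20.5 and 19.8 CPM in naive libraries, 21.4, 22.5 and 20.96 at 10 min and 22.8, 22.9 and 20.9 at 30 min (0.23 ± 0.08, adjusted p = 0.037 at 30 min). Both were apart from naive at 30 min, yet Tm7sf2 was lost without CFC30 replicate 1 or naive replicates 1 or 2 (adjusted p 0.062 to 0.077), Sc5d without CFC30 replicates 1 or 2 or naive replicates 1 or 3 (adjusted p 0.052 to 0.19), and both in DESeq2 (0.056 and 0.13).

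Insig2, which retains SCAP in the endoplasmic reticulum, had 13.7, 11.4 and 12.5 CPM in naive libraries, 15.5, 16.6 and 16.4 at 10 min and 14.04, 13.9 and 15.8 at 30 min. Both later groups lay above naive, and the 10 min difference was called (0.37 ± 0.09, adjusted p = 0.0087; lost without naive replicate 2 (adjusted p = 0.057)) and the 30 min difference was not (0.24 ± 0.09, adjusted p = 0.072). Lrp1 had 221, 231 and 229 CPM in naive libraries, 266, 251 and 246 at 10 min and 264, 268 and 248 at 30 min. It was called at 10 min (0.16 ± 0.05, adjusted p = 0.025) and 30 min (0.22 ± 0.05, adjusted p = 0.0018), and the 30 min call held with each library left out. The 10 min call was lost without CFC10 replicate 1 or naive replicate 1 (adjusted p 0.1 to 0.11) and in one fit of both fractions (0.13). Soat1 had 12.8, 13.03 and 13.2 CPM in naive libraries, 12.5, 15.5 and 13.7 at 10 min and 15.8, 15.9 and 14.9 at 30 min (0.28 ± 0.09, adjusted p = 0.027 at 30 min). Npc1 had 31.5, 30.2 and 33.7 CPM in naive libraries, 26.8, 30.1 and 30.9 at 10 min and 27.3, 27.3 and 27.5 at 30 min (-0.20 ± 0.07, adjusted p = 0.046 at 30 min). The 30 min groups of both were apart from naive, Soat1 above and Npc1 below. Soat1 was lost without CFC30 replicates 1 or 2 or naive replicates 1 or 2 (adjusted p 0.062 to 0.091) and Npc1 without CFC30 replicates 1, 2 or 3 or naive replicates 1 or 3 (adjusted p 0.092 to 0.19), and both in DESeq2 (0.11 and 0.12). Rmc1, which overlaps Npc1 on the opposite strand, was also lower at 30 min (-0.24, adjusted p = 0.041). Stat6, 21838 bases from Lrp1 on the opposite strand, was higher at both times (0.54, adjusted p = 0.04, and 0.72, adjusted p = 0.0028). Sorl1, 127298 bases from Sc5d on the same strand, was higher at 30 min (0.33, adjusted p = 0.00016). The part of these neighbours in the counts was not tested. Without naive replicate 3, Fdft1, Tm7sf2 and Apoe were called too at 10 min (7 genes in all), and without naive replicate 1, Msmo1, Hsd17b7 and Insig2 at 30 min (adjusted p 0.0093, 0.019 and 0.044).

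**Figure D5:**
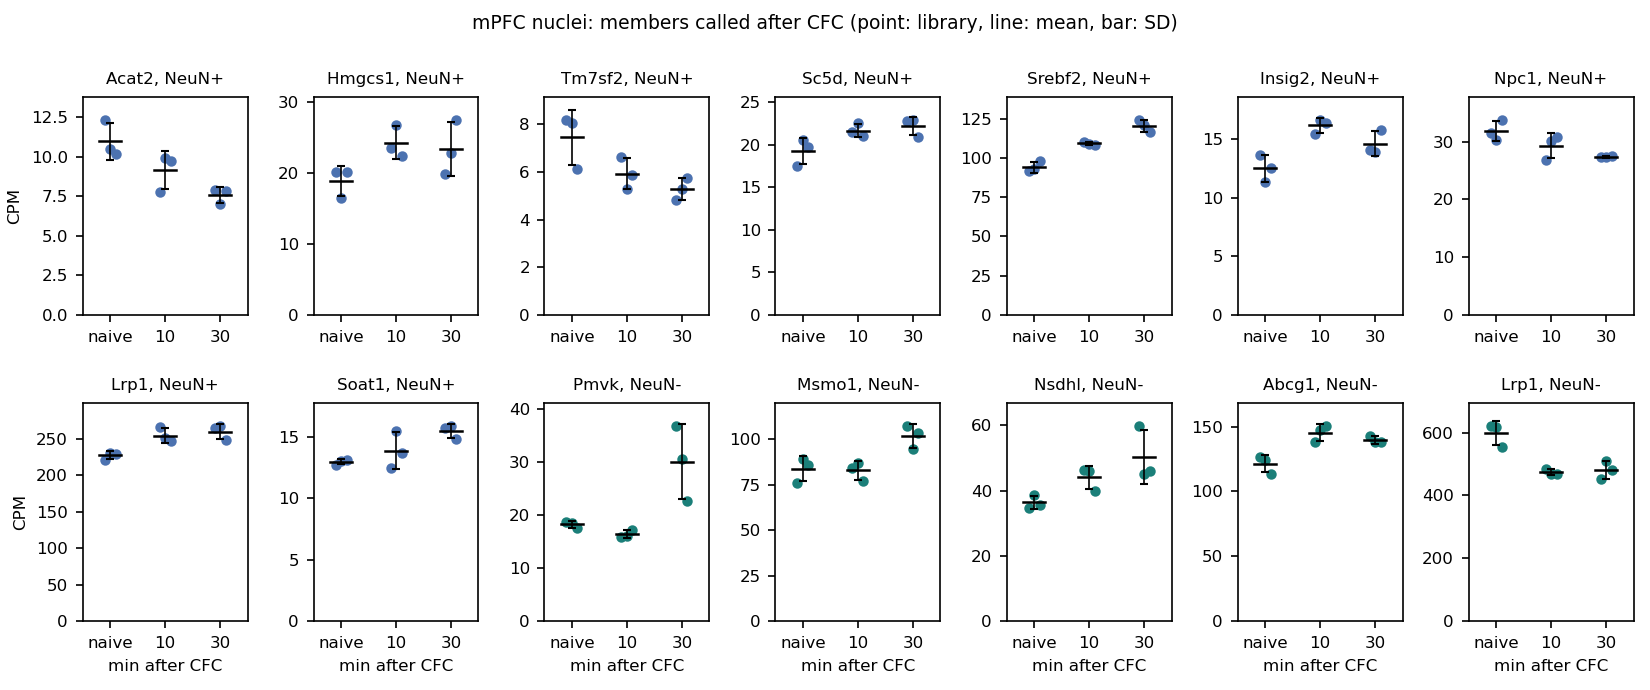
CPM by library in mPFC for each gene called after CFC against naive, in NeuN+ (blue) or NeuN- (green) nuclei, for naive mice and 10 or 30 min after CFC; each axis starts at 0, lines are means and bars SD of 3 libraries. Srebf2 in NeuN+ climbs without overlap, and Pmvk in NeuN- sits between 22.8 and 36.9 CPM at 30 min, above all earlier libraries.

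Between 30 and 10 min, edgeR and DESeq2 called 0 of 31 genes in mPFC NeuN+, beside 1.29% of all genes called by edgeR. An unadjusted p under 0.05 was found for 6, a count given without the share over all genes. Of 44 companion genes tested in mPFC NeuN+, 6 were called higher and 1 lower at 10 min and 6 higher and 2 lower at 30 min. Lrp8, the neuronal apolipoprotein E receptor, was among the higher ones at both times (0.36 ± 0.06, adjusted p = 0.00015 and 0.46 ± 0.06, adjusted p = 2.4e-06), as were Gramd1b, a carrier of plasma membrane sterol (0.35 ± 0.05, adjusted p = 1.1e-05 at 30 min), and Elovl6 (0.35 ± 0.06, adjusted p = 5.4e-05). Cyp7b1, an oxysterol hydroxylase, was lower (-0.55 ± 0.07, adjusted p = 1.4e-06), as was Mbtps1, the protease that makes the first cleavage of SREBP (-0.30 ± 0.07, adjusted p = 0.0013). Astrocyte markers in mPFC NeuN+ summed to 608 to 659 CPM in naive libraries, 668 to 746 at 10 min and 707 to 714 at 30 min. Oligodendrocyte markers summed to 65.5 to 87.3 CPM in naive libraries, 121 to 157 at 10 min and 119 to 184 at 30 min; their part in these results was not tested.

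In non-neuronal nuclei of mPFC, Pmvk, Msmo1, Nsdhl and Abcg1 were called higher and Lrp1 lower at 30 min. That is 4 and 1 of 34 genes, beside 2.68% and 3.17% of 14869 genes. At 10 min 1 was higher (Abcg1) and 1 lower (Lrp1), beside 0.74% and 0.968%.

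Pmvk, phosphomevalonate kinase (chromosome 3, 89454541 to 89469013, + strand), had the largest difference. It had 18.8, 18.5 and 17.6 CPM in naive NeuN- libraries, 15.96, 16.1 and 17.2 at 10 min and 36.9, 30.6 and 22.8 at 30 min. The 30 min libraries spread widely but all lay above the others (1.68-fold, 0.74 ± 0.14, adjusted p = 0.0046), and the call held with each library left out. Pmvk was also the 1 gene called between 30 and 10 min (0.89 ± 0.14, adjusted p = 0.0052), beside 0.699% of all genes. In HIP NeuN- nuclei it had 13.9, 15.5 and 12.8 CPM in naive libraries, 14.00, 15.03, 14.4 and 11.9 at 10 min and 14.3, 15.96, 12.03 and 10.4 at 30 min (-0.10 ± 0.13, adjusted p = 0.75 at 30 min). These hippocampal groups overlapped. Pbxip1, the gene upstream of Pmvk on the same strand, had a 30 min difference of 0.22 (adjusted p = 0.18) in mPFC NeuN- nuclei.

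Msmo1 had 75.9, 89.3 and 85.8 CPM in naive libraries, 84.3, 86.9 and 76.97 at 10 min and 107, 94.4 and 103 at 30 min (0.31 ± 0.08, adjusted p = 0.029 at 30 min). Nsdhl, which acts just after it, had 34.8, 38.8 and 35.7 CPM in naive libraries, 46.5, 45.9 and 40.00 at 10 min and 59.9, 45.00 and 46.1 at 30 min (0.49 ± 0.11, adjusted p = 0.013 at 30 min). At 30 min both lay above all naive libraries. Cpe and Klhl2, the genes on either side of Msmo1 at 25085 and 5883 bases, were also higher at 30 min (0.52, adjusted p = 0.0019, and 0.28, adjusted p = 0.018). Lrp1 went the other way from its course in neurons, with 622, 618 and 553 CPM in naive libraries, 484, 469 and 469 at 10 min and 453, 509 and 482 at 30 min. Both later groups lay below naive (-0.33 ± 0.06, adjusted p = 0.017 at 10 min and -0.29 ± 0.06, adjusted p = 0.012 at 30 min). Abcg1 had 127, 124 and 114 CPM in naive libraries, 138, 148 and 151 at 10 min and 143, 138 and 138 at 30 min (0.26 ± 0.06, adjusted p = 0.048 and 0.23 ± 0.06, adjusted p = 0.045). Its later groups lay above naive, though neither call held without any 1 of the 6 libraries compared (adjusted p 0.053 to 0.16). Cyp46a1 in NeuN- libraries had 22.6, 24.1 and 19.00 CPM in naive, 19.4, 18.4 and 13.9 at 10 min and 14.6, 18.1 and 16.2 at 30 min (-0.40 ± 0.13, adjusted p = 0.085 at 30 min), and was called with no filter on low values or in one fit of both fractions (0.031 and 0.029). The neuron marker sum was 170.2 to 277 CPM at 30 min, against 152 to 349.6 in naive NeuN- libraries; its part in this value was not tested.

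Of the other NeuN- calls, Lrp1 was lost at 10 min without CFC10 replicates 2 or 3 or naive replicates 1 or 2 (adjusted p 0.069 to 0.11) and at 30 min without CFC30 replicate 1 or naive replicates 1 or 2 (adjusted p 0.056 to 0.081), Msmo1 without CFC30 replicates 1 or 3 or naive replicates 1 or 3 (adjusted p 0.059 to 0.15) and Nsdhl without CFC30 replicate 1 or naive replicates 1 or 3 (adjusted p 0.052 to 0.073). Cyp51 was called without CFC30 replicate 3 (adjusted p = 0.028), and Idi1 without CFC30 replicate 2 or naive replicate 3 (0.045 and 0.049). Oligodendrocyte markers in mPFC NeuN- summed to 4686 to 5063 CPM in naive libraries, 5561 to 5796 at 10 min and 5281 to 5745 at 30 min. Microglia markers summed to 1212 to 1281 CPM in naive libraries, 935 to 1085 at 10 min and 922 to 1101 at 30 min. Precursor markers summed to 613 to 667 CPM, 492 to 595 at 10 min and 538 to 568 at 30 min. At both times none of these sums overlapped the naive ones, Lrp1 was highest in PU.1+ and Abcg1 in 3X- nuclei of the hormone experiment, and the part of the mixture of cells in the NeuN- results was not tested. Of 50 companion genes tested, 4 were called higher and 2 lower at 30 min, led by Elovl5 (0.49 ± 0.06, adjusted p = 0.00028), Gpam (-0.34 ± 0.07, adjusted p = 0.009), Apod (0.33 ± 0.06, adjusted p = 0.0052) and Mylip (-0.32 ± 0.07, adjusted p = 0.017).

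The 30 min response differed between the mPFC fractions for 4 of 34 genes, beside 4.18% of 16560 genes. For NeuN- minus NeuN+, Lrp1 gave log2 difference -0.51 ± 0.08 (SE), adjusted p = 0.00058 and Srebf2 -0.35 ± 0.08, adjusted p = 0.011. Srebf2 in NeuN- had 185, 168 and 175 CPM in naive libraries, 171, 188 and 187 at 10 min and 171, 184 and 175 at 30 min, with overlapping groups. Tm7sf2 (0.76 ± 0.20, adjusted p = 0.028) and Abca1 (0.45 ± 0.12, adjusted p = 0.036) were called too. Tm7sf2 was lost without mPFC NeuN+ CFC30 replicates 1 or 2 or mPFC NeuN+ naive replicates 1 or 2 or mPFC NeuN- CFC30 replicate 1 or mPFC NeuN- naive replicate 2 (adjusted p 0.062 to 0.096), and Abca1 without mPFC NeuN+ CFC30 replicates 1 or 3 or mPFC NeuN+ naive replicates 1 or 2 or mPFC NeuN- CFC30 replicates 1 or 3 or mPFC NeuN- naive replicate 2 (adjusted p 0.053 to 0.16). Abca1 in mPFC NeuN+ nuclei was too low for the test within that fraction, and it entered the test of the difference through NeuN- alone. In NeuN+ it had 9.99, 9.96 and 8.96 CPM in naive libraries, 6.95, 7.60 and 7.27 at 10 min and 5.85, 8.17 and 6.67 at 30 min. Both later NeuN+ groups lay below naive. In NeuN-, Abca1 had 401, 399.7 and 403 CPM in naive libraries and 399, 393 and 399 at 30 min. Idi1 (adjusted p = 0.078 with all libraries), Mvk (0.078) and Pmvk (0.15) were called with 1 library left out: Idi1 without NeuN+ naive replicate 3, NeuN- CFC30 replicate 2 or NeuN- naive replicate 3, Mvk without NeuN- CFC30 replicate 2 or NeuN- naive replicate 1, and Pmvk without NeuN- CFC30 replicate 3.

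In HIP the set held no call after CFC in either fraction by edgeR. In NeuN+, 0 of 28 genes tested were called at 10 min, beside 2.72% of 12429 genes higher and 2.14% lower, and 0 at 30 min, beside 4.67% and 3.89%. At each time DESeq2 also called 0, and 4 had an unadjusted p under 0.05, a count given without the share over all genes. Srebf2 had 58.8, 59.1, 60.5 and 61.7 CPM in naive NeuN+ libraries, 64.7, 57.96, 69.1 and 63.05 at 10 min and 63.4, 65.6, 71.3 and 67.2 at 30 min. Its 30 min libraries lay above the naive ones (log2 difference 0.14 ± 0.05 (SE), adjusted p = 0.088, interval 0.04 to 0.24), a smaller value than in mPFC; the difference between the regions was not tested. Without CFC30 replicate 1, edgeR called Srebf2 (0.17, adjusted p = 0.046), Cyp51 (0.25, 0.048) and Msmo1 (0.35, 0.026) higher at 30 min. Between 30 and 10 min edgeR and DESeq2 called 0 of 28, beside 0.298%, with 3 at an unadjusted p under 0.05 (share over all genes not given). Without CFC30 replicate 1, edgeR called Cyp51 and Msmo1 (adjusted p 0.02 and 0.028). Lrp8 was again among the companions called higher at both times (0.18 ± 0.05, adjusted p = 0.024 at 10 min and 0.24 ± 0.05, adjusted p = 0.0022 at 30 min), of 3 higher and 0 lower of 44 at 10 min and 4 higher and 3 lower at 30 min.

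In HIP NeuN- nuclei, 0 of 34 genes were called at 10 min, beside 0.122% of 14802 genes higher and 0.223% lower. DESeq2 called 0, and 6 had an unadjusted p under 0.05, a count given without the share over all genes. At 30 min edgeR also called 0, beside 1.2% and 1.18%. Of the 34, 12 (11 with lower levels after CFC and Abcg1 with higher) had an unadjusted p under 0.05, as did 16.4% of all 14802 genes (8.47% lower and 7.93% higher). The set's median was -0.16, against 0.00 over all genes. DESeq2 called 2 (Fdft1 and Insig1), beside 3.38% of all genes, and edgeR with all groups of the region in one fit called 5 (Acat2, Fdft1, Cyp51, Sc5d and Insig1), beside 4.30%. With no filter on low values edgeR called 4, beside 2.67%.

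Closest to the threshold was Hsd17b7, a ketosteroid reductase of the late pathway, with 11.9, 10.8 and 9.98 CPM in naive libraries, 8.55, 8.57, 9.75 and 8.05 at 10 min and 8.22, 7.76, 8.79 and 7.60 at 30 min (-0.43 ± 0.11, adjusted p = 0.052 at 30 min). Insig1 had 33.6, 30.8 and 32.4 CPM in naive libraries, 20.8, 31.7, 26.8 and 25.5 at 10 min and 28.5, 25.6, 21.9 and 21.4 at 30 min (-0.41 ± 0.12, adjusted p = 0.084 at 30 min). Fdft1 had 76.9, 89.3 and 83.2 CPM in naive libraries, 66.5, 79.3, 74.8 and 61.4 at 10 min and 73.3, 72.6, 59.2 and 57.9 at 30 min (-0.34 ± 0.10, adjusted p = 0.073 at 30 min). In all 3 the 30 min libraries lay below every naive library. Acat2, Sc5d and Cyp51 had 30 min differences of -0.47, adjusted p = 0.066, -0.29, adjusted p = 0.081 and -0.32, adjusted p = 0.085, also without overlap. Oligodendrocyte markers in HIP NeuN- summed to 5068 to 5508 CPM at 30 min, against 4665 to 4947 in naive libraries, and astrocyte markers to 5647 to 6046, against 5861 to 6028; their part in these values was not tested. Between 30 and 10 min edgeR and DESeq2 called 0 of 34, beside 0.169%, with 5 at an unadjusted p under 0.05 (share over all genes not given). The 30 min response of NeuN- minus that of NeuN+ was called for 0 of 34 by edgeR, beside 0.293% of genes. An unadjusted p under 0.05 was found for 9, a count that cannot be read without the share over all genes. DESeq2 called 1 (Sc5d), and its share over all genes is not given. There edgeR called Sc5d without NeuN+ CFC30 replicate 4 (adjusted p = 0.048) and Cyp51 without NeuN+ CFC30 replicate 1 (0.049). Of 51 companion genes tested in HIP NeuN- at 30 min, edgeR called 0 and DESeq2 1, with 10 at an unadjusted p under 0.05, beside 16.4% of all genes.

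Finally, the genes were placed against the deposited γH2AX peaks, a chromatin mark of DNA double-strand breaks called on merged ChIP-seq replicates, each pooled from several animals, of naive and CFC30 tissue. Of the 34 genes, 0 overlapped any of 282 HIP peaks or any of 260 mPFC peaks. The peak lists used here are shorter than those the study describes, so peaks not analysed here could not be compared with the genes. The background was counted otherwise, by the genes that the peak labels name. Of all genes tested in the RNA data, 304 of 16048 (1.89%) were named in a HIP peak label and 279 of 16560 (1.69%) in an mPFC one. By these labels the count among the 34 genes was also 0 in each region. The share over all genes is low enough that the count of 0 is near it, and no test was made.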

How the data were processed

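The deposited tables hold raw counts per gene, which the authors made from rRNA-depleted nuclear RNA-seq of sorted nuclei with Trimmomatic, HISAT2, Picard, SAMtools and featureCounts on GRCm38; versions and the strand setting of the counting are not given in the sources used here, so reads of a gene and of an overlapping neighbour may be mixed. The deposited peak files list γH2AX regions (Bowtie2, MACS2, bedtools), used as positions only. IDs without an annotation held under 0.03% of counts and stayed out. The test took the genes whose average FPKM passed 0.2 in 1 or more groups of the fit, with edgeR 4.0.16 (TMM, quasi-likelihood F test, Benjamini-Hochberg over all genes tested, adjusted p under 0.05; R 4.3.3); every adjusted p is from that test unless named. Intervals are 95%. Levels are CPM of all counts in the library. Conditioning groups were fitted within a region and fraction, hormone groups within a population, and fractions, populations and differences of responses in one fit over the table. Alternatives were DESeq2 1.42.0, RLE size factors, no filter, a replicate block, one fit per table and each library left out; the fits were tested on simulated data.

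Replicate numbers were taken to pair samples where every same-numbered correlation of deviations was over 0.1. Of the comparisons reported, mPFC naive NeuN- against NeuN+ passed this rule, with all 3 over 0.1 (0.21 to 0.42). Same-numbered fractions also passed 0.1 throughout at mPFC CFC10 and HIP CFC30. The differences of fractions at 30 min draw on HIP CFC30 and on naive mPFC, and their main fit left the pairing out. With the replicate block they called 0 genes in HIP and 4 in mPFC, the same numbers as without it. In the naive mPFC fractions the block called the same number of the genes, 29. The study gated the 4 hormone populations one after another, so libraries of different populations may come from the same mouse. Across populations the same number was the best match in 26 of 48 cases after corticosterone and 19 of 48 after saline. The median same-numbered correlation was 0.07 in each, against -0.02 and -0.04 for other numbers. The fits over all 32 libraries left this out. Named genes are all 34 of the set, in each comparison those called, and each at least once with its level, and of 6 companion lists (55 genes) those with the 2 smallest adjusted p of a list in a comparison. Genes called only under another setting, and neighbouring genes, were named after their values were seen. The members and lists were chosen with earlier results of these data known. Library totals are given with the results, and precision comes from groups of 3 or 4 libraries. ChIP-seq samples enter only through the peaks.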

Additional observations from a re-analysis of the deposited data

Results flagged for a closer look

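Of 143 groups of values looked at, 6 held a library far from the others, where chance marks about 1 in 20. Abca1 in 3X- corticosterone replicate 2 had 360 CPM (others 289.5 to 299.4), and Hsd17b7 in GFAP+ saline replicate 2 had 23.8 CPM (others 15.3 to 16.3). Insig2 in 3X- saline replicate 1 had 21.6 CPM (others 18.8 to 19.2), and Pmvk in PU.1+ saline replicate 2 had 8.00 CPM (others 6.64 to 6.84). Msmo1 had 12.7 CPM in NeuN+ saline replicate 3 (others 14.6 to 14.9) and 13.0 CPM in PU.1+ saline replicate 1 (others 17.0 to 17.2).

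In 10 cases responses differed between populations by the test of the difference itself. For corticosterone, Abca1 differed by -0.59 between PU.1+ and GFAP+ and by -0.52 between PU.1+ and 3X-. Abcg1 differed by -0.64, -0.57 and -0.56 between PU.1+ and GFAP+, 3X- and NeuN+ in that order, and Fdft1 by -0.60 between 3X- and NeuN+. For CFC at 30 min in mPFC, NeuN- minus NeuN+ gave -0.51 for Lrp1, -0.35 for Srebf2, 0.76 for Tm7sf2 and 0.45 for Abca1, which was too low for a test within NeuN+. The causes of these differences were not tested.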

How the results depend on the processing

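Counts of called genes are given here where another setting moved them by over 1.5 times. No named value changed direction under any alternative. Shares over all genes under another setting were given only for HIP NeuN- at 30 min, so the other counts below stand without a background. With DESeq2 the count became 2 in HIP NeuN- at 30 min (0 in edgeR), 4 in mPFC NeuN+ at 30 min (8), 2 in mPFC NeuN- between 30 and 10 min (1), 1 for the HIP difference of fractions at 30 min (0), and 2 for the corticosterone differences GFAP+ minus NeuN+ (0) and 3X- minus NeuN+ (1). With no filter on low values it became 1 in HIP NeuN+ at 10 min (0), 4 in HIP NeuN- at 30 min (0), 1 in HIP NeuN- between the times (0), 2 in mPFC NeuN- between the times (1), 1 in NeuN+ (0) and 3 in GFAP+ (1) after corticosterone, and 3 and 2 for 3X- minus NeuN+ (1) and 3X- minus GFAP+ (0). With all groups of a table in one fit it became 5 in HIP NeuN- at 30 min (0) and 2 in GFAP+ (1).

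With the replicate number as a block (replicate block), the count became 2 in HIP NeuN- at 30 min, 1 in mPFC NeuN- at 10 min (2), and 1 in NeuN+ and 2 in GFAP+ after corticosterone. Within each conditioning or hormone fit the numbers did not pass the rule for pairing, every same-numbered correlation over 0.1. The lowest was between -0.32 and 0.04, and no fit had every library correlate best with its own number. Yet mPFC libraries leaned that way. In NeuN- the median was 0.23 for the same number, against -0.16 for other numbers, with 14 of 18 best matches on the same number. In NeuN+ it was 0.12, against -0.07, with 12 of 18. The main fits left this out. With the block, mPFC NeuN+ had 4 calls at 10 min and 8 at 30 min, and NeuN- had 1 and 5. Between fractions every same-numbered pair was over 0.1 in naive mPFC (0.21 to 0.42), mPFC CFC10 (0.14 to 0.37) and HIP CFC30 (0.10 to 0.30).

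Leaving out 1 library gave 0 to 3 calls in HIP NeuN+ at 30 min and 0 to 2 between the times, 2 to 7 in mPFC NeuN+ at 10 min and 4 to 7 at 30 min, 0 to 1 in mPFC NeuN- at 10 min and 1 to 5 at 30 min. After corticosterone it gave 0 to 1 in NeuN+ and 0 to 5 in 3X-, and for differences 0 to 1 (GFAP+ minus NeuN+, PU.1+ minus NeuN+, 3X- minus NeuN+, HIP fractions), 2 to 6 (mPFC fractions), 1 to 2 (PU.1+ minus GFAP+) and 0 to 2 (3X- minus GFAP+). The causes were not tested. Counts at rest between populations and fractions moved by less than 1.5 times.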
